A study of Homo sapiens with 4 samples.

Results

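The nuclear genes of the mitochondrial respiratory chain were followed in A549 cells, a human lung adenocarcinoma line, after exposure to embelin. Probes were taken by the gene name in the array files, namely the NDUFA, NDUFB, NDUFC, NDUFS and NDUFV families (complex I), SDHA to SDHD (complex II), UQCR and CYC1 (complex III), COX4 to COX8 (complex IV), ATP5 (complex V) and CYCS, the gene of cytochrome c. This gave 132 of 50238 probes and 86 of 30970 genes or transcripts by name, without the assembly factors NDUFAF1 and NDUFA12L (now NDUFAF2). NDUFA4 (now COXFA4) was counted in complex IV, where its protein sits. COX4NB (now EMC8) and ATP5S (now DMAC2L) carry such a name but are no subunits, and they were kept in no complex, as was NDUFA4L2.

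The 2 control samples were untreated A549 cells (0 µM embelin, 4 h) and the 2 embelin samples received 15 µM embelin, a plant benzoquinone, for 4 h. All 4 had been moved to medium with reduced serum before the treatment. Each RNA sample was labelled with Cy3 and hybridized to 1 array of a single slide read in 1 scan. The sources used here do not say whether the replicates came from separate cultures, so the p-values measure the spread between these samples, which may be technical.

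Complexes I to IV pass electrons from NADH or succinate to oxygen, with cytochrome c as the mobile carrier between complexes III and IV. Complexes I, III and IV pump protons across the inner mitochondrial membrane, and complex V, the ATP synthase, uses the returning protons to make ATP. Nearly all subunits are encoded in the nucleus and imported, while a small core is read from mitochondrial DNA. Several complex IV subunits and the membrane ring of complex V have alternative isoforms from separate genes, some of them restricted to muscle, lung or testis.

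The RNA of the respiratory chain subunits differed little between embelin-treated and control cells at 4 h. As in any bulk sample, fewer cells with an RNA and less of it per cell cannot be told apart. Of the 86 genes, 82 had a probe that was well above background throughout the control group, the embelin group or both, and these were tested among 17649 genes or transcripts. After Benjamini-Hochberg adjustment of limma's p over all of these, 0 members were called higher and 0 lower, where the shares of all genes were 1.25% for higher and 0.561% for lower. Before adjustment 0 members were higher and 0 lower at p under 0.05, against 8.36% of all genes higher and 11.1% lower. The lowest unadjusted limma p of a member was 0.067, for CYCS. By the methods' t-test 3 of the 82 members passed the same threshold before adjustment (3.66%, against 15.5% of all genes). After adjustment that test called 0 genes on the whole array.

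The changes were also small in size. The log2 fold change, embelin minus control, had a median of -0.02 over the 82 members, with quartiles of -0.15 and 0.07. Over all genes tested the median was -0.06 with quartiles of -0.35 and 0.23. A change of less than 0.5 on the log2 scale in either direction was seen in 81 of 82 members (98.8%), against 68.1% of all genes. A single member, COX4I2, was at least 2-fold higher and 0 were at least 2-fold lower, where 6.66% of all genes were that much higher and 5.95% lower. For 74 members (90.2%) the 95% interval of the change lay wholly within 2-fold in either direction, which held for 52.9% of all genes. The other 8, NDUFA1, NDUFA3, NDUFB1, SDHC, COX4I2, COX6A2, COX6C and COX7B, had intervals that reached beyond 2-fold. The fit takes no pairs, and in all of these but COX6A2 replicates 1 and 2 differed in the same direction in both groups. Such a shared difference adds to the width of an interval, and how much of each width it makes up was not tested. The 8 intervals do not exclude a 2-fold change, and of these genes COX4I2 alone had an estimate beyond 2-fold.

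**Figure D1:**
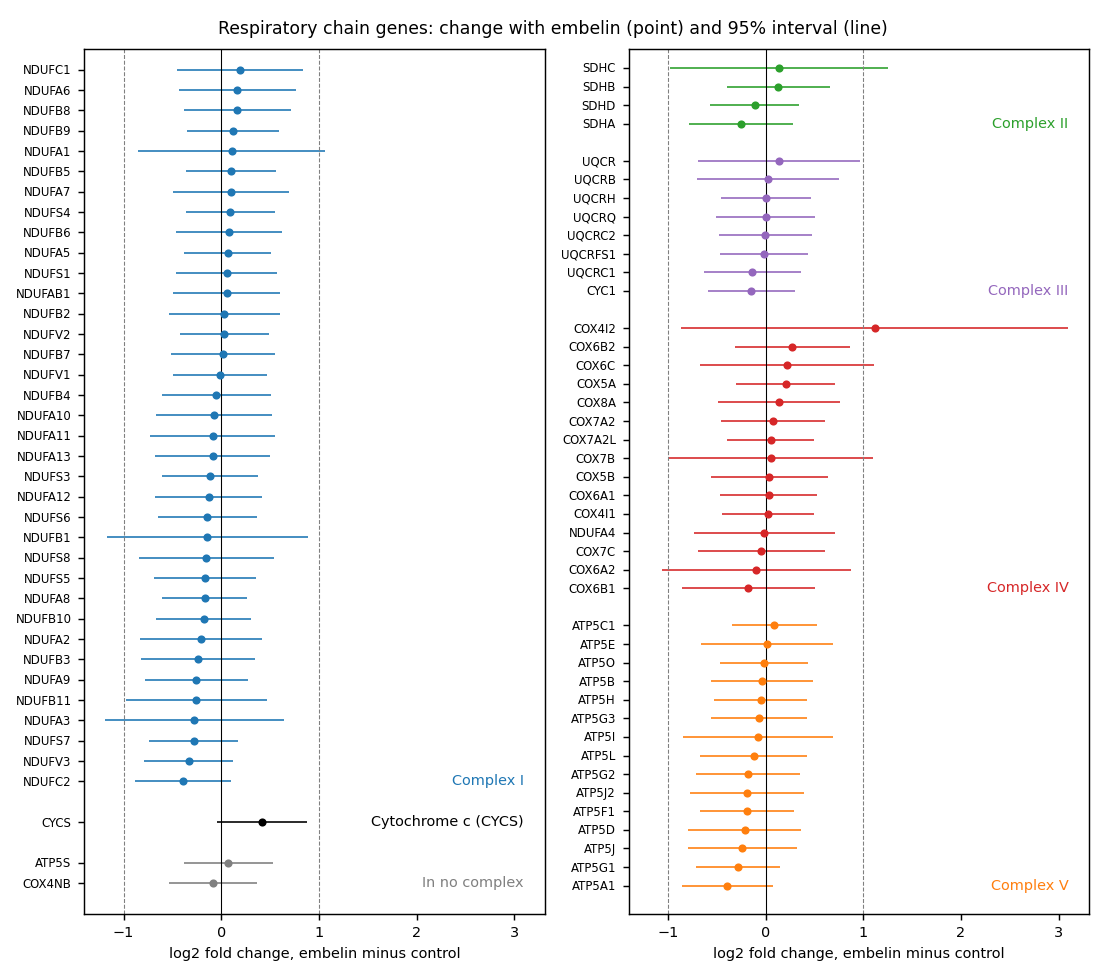
Log2 fold change (embelin minus control, x axis) of 81 of the 82 tested genes, each with its 95% interval from limma as a line and genes grouped by complex on the y axis. The dashed lines mark a 2-fold change; every interval includes 0, and the point of COX4I2 alone lies beyond a dashed line.

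Bright probes vary less than dim ones, and the members are bright, with 73 of 82 at a mean log2 signal of at least 12. A limit of 12, chosen after the values were seen, left 3754 genes of all those tested, members included. Among them 13.5% had an unadjusted p under 0.05 in either direction, 84.5% changed by less than 0.5 and 78.2% had an interval within 2-fold. Of the 73 bright members 0 had such a p, and all 73 changed by less than 0.5. The median SD within groups was 0.167 in the bright members and 0.139 in all bright genes. A larger SD makes a low p harder to reach, and its part in the 0 was not tested.

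**Figure D2:**
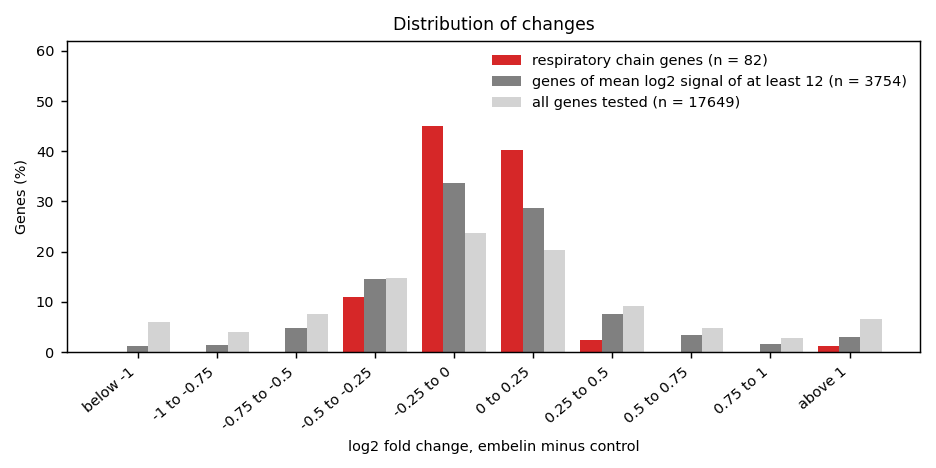
Share of genes (y axis, percent) in each range of log2 fold change (x axis, embelin minus control), for the 82 respiratory chain genes, the 3754 genes with a mean log2 signal of at least 12 and all 17649 genes tested. The members were gathered in the 2 ranges next to 0, which hold 45.1% and 40.2% of them.

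Markers of the labelled cells were present, as 8 of 8 genes typical of A549 or of epithelial cells (keratins KRT7, KRT8, KRT18 and KRT19, EPCAM, AKR1B10, AKR1C1 and ALDH1A1) were above background on all 4 arrays. Of 6 markers of other cells, CDH5 and DCN were above background on none of the arrays, PTPRC on 1, PECAM1 on 2, CD3E on 3 and COL1A1 on all 4. Their log2 signals lay between 1.54 and 7.69. COL1A1 was higher with embelin, at 7.56 and 7.69 against 6.38 and 6.27 in the controls, and its part in the results was not tested. Fewer probes were above background on the arrays of control replicate 2 (50.3%) and embelin replicate 1 (51.2%) than on those of control replicate 1 (66.7%) and embelin replicate 2 (66.4%). The 2 groups thus held 1 array of each kind, and 81 of the 82 tested members were above background on all 4.

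Cytochrome c, besides carrying electrons, activates the apoptosome once it leaves the mitochondria. CYCS had log2 signals of 12.96 and 12.88 in the controls and 13.25 and 13.42 with embelin. Both embelin arrays were above both controls. The difference of 0.42 ± 0.17 (SE, n = 2 per group), or 1.33-fold, did not pass limma's test (adjusted p = 0.293). The other kept CYCS probe gave 0.12, and its groups overlapped. The promoters of CYCS, with the highest log2 fold change among members above background on all arrays, and of ATP5A1 (now ATP5F1A), with the lowest, are shown to set the ends of the range side by side. They are the 250 bases before the gene's start, from RefSeq on GRCh38.p14, chr7:25125261-25125510 for CYCS and chr18:46104228-46104477 for ATP5A1, both on the minus strand and written 5′ to 3′ in gene direction. Capitals mark ACGTG, the core of the hypoxia response element, here read from the opposite strand.
CYCS: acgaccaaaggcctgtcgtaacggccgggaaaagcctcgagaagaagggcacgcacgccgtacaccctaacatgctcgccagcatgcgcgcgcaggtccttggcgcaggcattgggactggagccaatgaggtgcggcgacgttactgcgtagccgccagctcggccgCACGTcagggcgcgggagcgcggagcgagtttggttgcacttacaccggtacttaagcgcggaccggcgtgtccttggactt
ATP5A1: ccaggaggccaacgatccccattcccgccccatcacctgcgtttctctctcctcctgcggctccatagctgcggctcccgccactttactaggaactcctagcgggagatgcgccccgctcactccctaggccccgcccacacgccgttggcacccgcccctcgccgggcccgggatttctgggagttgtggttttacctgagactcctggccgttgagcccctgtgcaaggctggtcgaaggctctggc

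Some motifs known from promoters of respiratory genes or hypoxia targets were searched on both strands of the 300 bases from 250 before to 50 after the start. Promoters were found for 70 of the 86 genes, beside 27305 promoters in all. CCGGAAG, bound by GABPA (NRF-2), stood in 28.6% of the members' promoters and in 2913 of the 27305. AAGGTCA, bound by ESRRA, stood in 11.4% against 3.97%, the NRF1 motif in 5.71% against 1.36% and the YY1 motif in 10% against 1.28%. ACGTG was about as frequent in the members (24.3%) as in all promoters (21.6%). CYCS held ACGTG once and no exact match to the other motifs, and ATP5A1 held no exact match to any. Only exact matches were counted, so a site that differs from these letters was missed. A match says nothing on whether a factor was bound.

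Complex I, which takes electrons from NADH, showed small differences in both directions. All 37 of its genes were tested, with a median log2 fold change of -0.08, a lowest value of -0.39 and a highest of 0.19. Values were above 0 in 16 and below 0 in 21. NDUFS7, which holds an iron-sulfur cluster next to the quinone, had 14.15 and 14.08 in the controls against 13.91 and 13.76 with embelin. The difference was -0.28 ± 0.17 (SE, n = 2 per group; limma, adjusted p = 0.429). The other kept NDUFS7 probe gave -0.11, and its groups overlapped.

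The lowest values of complex I were those of 2 accessory subunits. NDUFC2, a small subunit of the membrane arm, had log2 signals of 15.57 and 15.32 in the controls and 15.08 and 15.02 with embelin. The difference was -0.39 ± 0.18 (SE, n = 2 per group; limma, adjusted p = 0.342). NDUFV3, a subunit near the NADH site, had 12.92 and 12.77 in the controls and 12.56 and 12.46 with embelin. Its difference was -0.34 ± 0.17 (SE, n = 2 per group; limma, adjusted p = 0.374). In both genes the embelin arrays lay below both controls without passing the test. The highest values were those of the membrane arm subunit NDUFC1, with 14.59 and 14.10 against 14.61 and 14.47, and of NDUFA6, an accessory subunit, with 14.61 and 14.35 against 14.83 and 14.46. Their differences of 0.19 and 0.17 were within the spread of the replicates.

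In both NDUFC2 and NDUFV3 a second, dimmer probe gave a larger difference than the probe that stood for the gene. Fitted probe by probe, 2 of 122 kept member probes had an unadjusted p under 0.05 in the lower direction and 0 in the higher, against 9.63% and 8.27% of all kept probes. The 60-base probes of NDUFV3 are shown because the files annotate them to different sets of transcripts, which was not checked against transcript sequences. The first 2 overlap by the 23 bases in capitals and are annotated in the files to both RefSeq transcripts of the gene. The third, with no capitals, is annotated to 1 of the 2 only.
NDUFV3 probe 1: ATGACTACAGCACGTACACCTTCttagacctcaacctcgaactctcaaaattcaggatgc
NDUFV3 probe 2: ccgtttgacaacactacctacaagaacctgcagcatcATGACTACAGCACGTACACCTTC
NDUFV3 probe 3: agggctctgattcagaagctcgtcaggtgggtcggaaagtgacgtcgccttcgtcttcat

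Probes 1 and 2 differed little from each other, at -0.34 and -0.31. Probe 3 had log2 signals of 9.06 and 9.19 in the controls and 8.16 and 8.44 with embelin, with no overlap. Its difference of -0.82 ± 0.20 (SE, n = 2 per group) had an unadjusted limma p of 0.013 and an adjusted p of 0.157 in the fit over single probes. Whether probe 3 changed more than the other 2 was not tested. The second NDUFC2 probe had 7.76 and 7.89 in the controls against 6.40 and 7.04 with embelin, a difference of -1.11 ± 0.28 (SE, n = 2 per group; limma, adjusted p = 0.161). The first 30 bases of both NDUFC2 probes, which are annotated to the same transcript, are given to tell them apart, in lower case because nothing is marked.
NDUFC2 probe 1: acctgctgtttctgaatttgatggaacatg
NDUFC2 probe 2: aaatcaaatgatttctgtctctattttctt

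Complex II, succinate dehydrogenase, feeds electrons from the citric acid cycle into the quinone pool. All 4 genes were tested and had a median log2 fold change of 0.01. SDHA, the flavoprotein, had 13.77 and 14.04 in the controls and 13.54 and 13.75 with embelin, a difference of -0.26 (limma, adjusted p = 0.538). SDHD, a membrane anchor, stood at 11.21 and 11.37 against 11.17 and 11.18, or -0.11. On these 2 probes both embelin arrays were below both controls, by less than the test could separate. The other 3 SDHD probes gave 0.10, 0.07 and -0.06, so the gene had no settled direction. The other kept SDHA probe gave -0.16, and its groups overlapped. SDHB, the iron-sulfur subunit, was at 12.78 and 13.09 against 13.02 and 13.10, or 0.13. For SDHC, the other anchor, the 2 controls differed more (10.84 and 11.71) than the group means did, with embelin at 11.09 and 11.74. The array also holds probes of the near-identical copies SDHALP1, SDHALP2 and SDHAP3, so RNA of a copy cannot be told apart from that of SDHA where a probe matches both.

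Complex III, which passes electrons from quinol to cytochrome c, had the narrowest spread of changes among the complexes with more than 4 genes tested. Its 8 genes ran from -0.15 to 0.13 with a median of -0.00, and all 8 intervals lay within 2-fold. CYC1, cytochrome c1, had 13.74 and 13.77 in the controls and 13.54 and 13.67 with embelin, and UQCRC1, a core protein, had 13.35 and 13.61 against 13.31 and 13.36. These were the lowest changes, at -0.15 and -0.14. UQCR (now UQCR11) was at 15.41 and 14.80 against 15.46 and 15.02, or 0.13, and UQCRB at 12.74 and 12.32 against 12.78 and 12.32, or 0.02. In both of these small subunits the 2 controls differed by more than the groups. A second, dimmer UQCR probe gave -0.31, with both embelin arrays below both controls, so the narrow range holds for the probes that stood for the genes.

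Complex IV, cytochrome c oxidase, had a median of 0.05 over 15 tested genes, 11 of them above 0, as were 7747 of all 17649 genes. Its common isoforms were nearly level. COX4I1, the widespread form of the largest nuclear subunit, had 15.60 and 15.50 in the controls and 15.66 and 15.48 with embelin, a difference of 0.02 with a 95% interval from -0.45 to 0.49. COX6A1 changed by 0.03, COX6B1 by -0.18, COX7A2 by 0.08, COX7A2L by 0.05, COX7B by 0.05, COX8A by 0.14 and NDUFA4 by -0.02, and in all 7 the groups overlapped. COX5A, which lies on the matrix side, had 15.83 and 15.59 against 16.00 and 15.84, a difference of 0.21 with no overlap (limma, adjusted p = 0.612). Its other 3 probes gave 0.08, 0.04 and -0.55 with overlapping groups, the last with embelin arrays at 13.27 and 11.40.

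COX4I2, the isoform best known from lung and from the response to low oxygen, was the only member changed 2-fold or more. Its log2 signals were 5.37 and 4.54 in the controls and 7.00 and 5.13 with embelin. The groups overlapped, as embelin replicate 2 was below control replicate 1. The difference of 1.11 ± 0.73 (SE, n = 2 per group) did not pass the test (limma, adjusted p = 0.472), and the signal of control replicate 2 was not well above background. Without control replicate 2 or without embelin replicate 1, 0 members reached a 2-fold change. The probes of both isoforms are shown because the isoforms are related in sequence, and the longest run they share, in capitals, has 6 of 60 bases.
COX4I1: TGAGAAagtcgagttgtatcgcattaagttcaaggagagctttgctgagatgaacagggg
COX4I2: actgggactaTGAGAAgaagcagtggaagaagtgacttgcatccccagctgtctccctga

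The other tissue isoforms had no clear change or did not pass the filter. COX6B2, the testis isoform of COX6B, had 6.84 and 6.53 in the controls and 7.10 and 6.81 with embelin, a difference of 0.27 (limma, adjusted p = 0.549), while its other probe gave 0.00. COX6A2, the heart and muscle isoform of COX6A, had 14.46 and 14.61 against 14.89 and 13.98, so the embelin arrays lay on both sides of the controls. COX7A1, COX7B2 and COX8C did not pass the filter. COX7A1, a muscle isoform, was above background on embelin replicate 2 alone, at 4.47, and the others on none of the arrays. NDUFA4L2, a relative of NDUFA4 known as a hypoxia target, was also not above background on any array, with log2 signals of 3.68 and 3.63 in the controls and 3.77 and 3.65 with embelin. NDUFA4 by contrast was above background on all 4, and the probes of the pair share a run of 12 of 60 bases, in capitals here to show how far they can be told apart.
NDUFA4: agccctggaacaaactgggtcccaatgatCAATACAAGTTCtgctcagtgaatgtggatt
NDUFA4L2: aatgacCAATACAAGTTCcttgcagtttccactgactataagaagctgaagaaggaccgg

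Complex V had the lowest median among the 5 complexes, -0.13, with 13 of 15 genes below 0. Of all 17649 genes tested 9902 were below 0, and the median over all was -0.06. Both embelin arrays lay below both controls in 5 of the 15, close to the 30.7% of all genes for which this held. ATP5A1, the alpha subunit of the catalytic head, had 15.04 and 15.22 in the controls and 14.70 and 14.78 with embelin, which was the lowest change of all members. The difference of -0.39 ± 0.17 (SE, n = 2 per group), or 1.31-fold lower, had an adjusted limma p of 0.316. ATP5B (now ATP5F1B), the partner beta subunit, was at 14.10 and 14.23 against 13.98 and 14.27, a difference of -0.04. The highest values of the complex were those of ATP5C1 (now ATP5F1C, the gamma shaft), with 12.16 and 12.10 against 12.18 and 12.26, and ATP5E (now ATP5F1E, the epsilon subunit), with 16.45 and 16.09 against 16.49 and 16.08. These came to 0.09 and 0.01.

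The 3 genes ATP5G1, ATP5G2 and ATP5G3 (now ATP5MC1, ATP5MC2 and ATP5MC3) encode the same mature subunit c of the membrane ring. ATP5G1 had 14.89 and 14.91 in the controls and 14.61 and 14.62 with embelin, or -0.29 (limma, adjusted p = 0.405). ATP5G2 was at 15.81 and 15.80 against 15.79 and 15.46, or -0.18, and ATP5G3 at 16.27 and 16.09 against 16.19 and 16.03, or -0.07. The replicates of ATP5G1 lay close together in both groups, yet limma's SE of 0.16 draws on the spread of all genes and the test was not passed. The median of complex V moved with the arrays used, from -0.28 without embelin replicate 1 to -0.024 without embelin replicate 2.

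**Figure D3:**
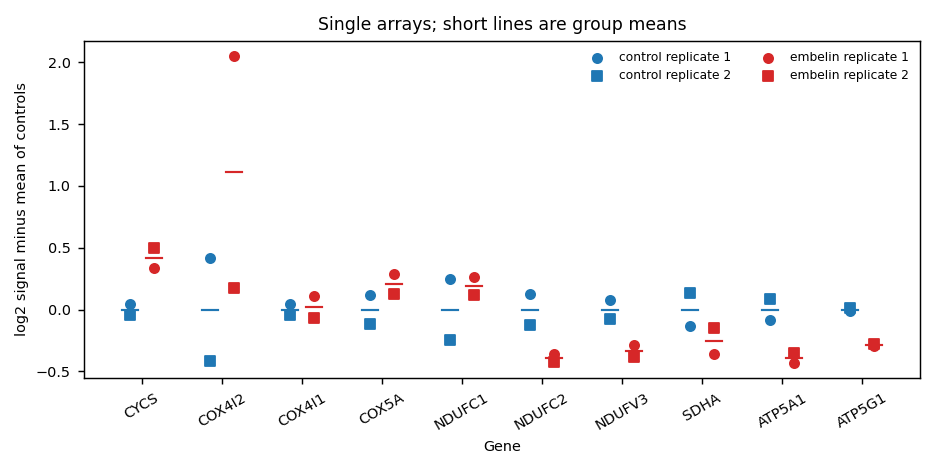
Log2 signal of each array minus the mean of the 2 controls (y axis), for the probes that stood for 10 named genes (x axis). Controls are in blue, embelin in red, replicate 1 as circles, replicate 2 as squares and group means as short lines. Embelin lay above both controls in CYCS and COX5A and below both in NDUFC2, NDUFV3, SDHA, ATP5A1 and ATP5G1, while the embelin arrays of COX4I2 lay far apart.

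Counted over all members, both embelin arrays lay above both controls in 4 genes (NDUFA5, COX5A, ATP5C1 and CYCS) and below in 14. Of the 17298 genes measured on all 4 arrays, 21.1% lay above and 30.7% below. Most member genes therefore had overlapping groups.

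As a set the members shifted more between replicate arrays than between the groups. In 59 of 82 (72.0%) replicate 1 was above replicate 2 in both the control and the embelin group, as were 23.5% of all genes tested and 26.2% of those with a mean log2 signal of at least 12. The median difference of replicate 1 minus replicate 2 was 0.17 in the controls and 0.16 with embelin. Complex IV had this order in 13 of 15 genes and complex I in 30 of 37, whereas all 4 genes of complex II had the opposite order in both groups. COX7B, a small membrane subunit, shows it well, with 13.16 and 12.46 in the controls and 13.23 and 12.50 with embelin. Across the 82 genes the 2 differences had a Pearson's r of 0.66, against 0.18 across 17298 genes. Among genes with a mean log2 signal of at least 12, r was 0.55 for the 73 members and 0.35 for all. These points share their arrays, and genes are not independent replicates. The arrays of replicates 1 and 2 lay at positions 4 and 1 of the slide for the controls and 2 and 3 for embelin, and the part of position or of the RNA preparation in this order was not tested.

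**Figure D4:**
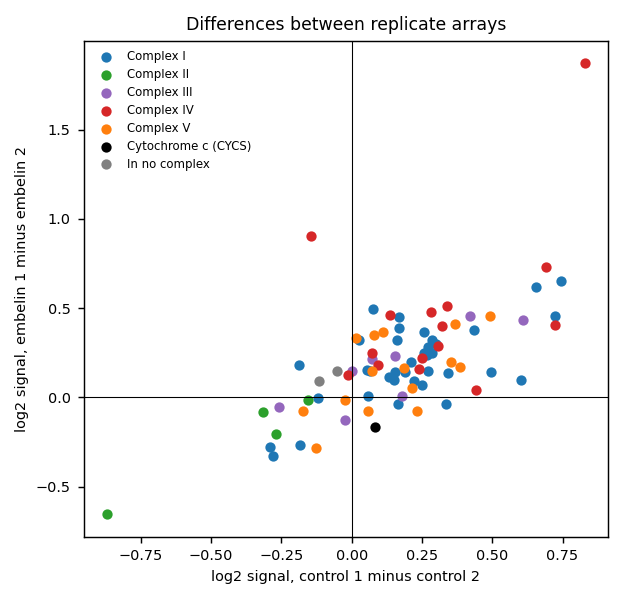
Difference in log2 signal between replicates 1 and 2 in the controls (x axis) and with embelin (y axis), 1 point for each of the 82 genes, coloured by complex. Most points lie in the upper right, where replicate 1 is higher in both groups, and the 4 genes of complex II lie in the lower left.

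Probes of one gene mostly gave values within 0.5 of each other, though not always of the same sign. In 32 members with more than 1 kept probe, the gap between the highest and the lowest log2 fold change had a median of 0.11, and 29 gaps were under 0.5. The others were COX5A (0.75), NDUFC2 (0.72) and NDUFV3 (0.52), and in 8 genes the probes differed in sign.

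The genes that build and supply the chain were read beside it. Of 45 assembly factors 1 had an unadjusted limma p under 0.05 in the higher direction and 4 in the lower, where the shares of all genes were 8.36% and 11.1%, and 0 were called after adjustment. TMEM70, which helps to assemble complex V, had 12.70 and 12.90 in the controls and 11.97 and 12.02 with embelin, a difference of -0.81 (limma, adjusted p = 0.114). COX20, a chaperone of complex IV, had 13.01 and 12.71 against 13.74 and 13.42, or 0.72 (limma, adjusted p = 0.197). The groups of these 2 genes did not overlap. Of 77 proteins of the mitochondrial ribosome, which translates the mitochondrial RNAs, 0 were called after adjustment, and before it 0 were higher and 3 lower, again beside 8.36% and 11.1% of all genes. The lowest changes were -0.71 in MRPL50, which had no usable spot on the array of embelin replicate 1, and -0.58 in MRPL34. The medians were -0.13 for the assembly factors and -0.11 for the ribosome.

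Of the subunits encoded in mitochondrial DNA, 5 were named in the files as in the list used, and 0 had a limma p under 0.05 before or after adjustment. ND2 of complex I had 12.36 and 11.38 in the controls and 13.01 and 12.76 with embelin, a difference of 1.01 (limma, adjusted p = 0.268). ND3 of the same complex went the other way, with 15.86 and 15.06 against 15.05 and 14.49, or -0.69 (limma, adjusted p = 0.400). The others, ND1, ND6 and COX1, lay between 0.12 and 0.55. The controls differed from each other by up to 0.98 in ND2, and CYTB, named here after its values were seen, gave 0.29 and 0.36 with its 2 probes.

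Among genes for carriers and fuel entry, PDK1, a kinase that shuts the pyruvate dehydrogenase complex and is known as a hypoxia target, rose from 8.54 and 8.21 in the controls to 11.07 and 11.25 with embelin. The difference was 2.78 ± 0.21 (SE, n = 2 per group; limma, adjusted p = 0.026), and PDK1 was the only one of the 29 genes in that list to pass the adjusted test. With any array left out PDK1 was not called, but in those fits no gene of the array was called. UCP3, an uncoupling protein, had the next largest change of that list, -2.07, with 8.81 and 8.43 against 6.25 and 6.86 (limma, adjusted p = 0.062). Before adjustment 2 of the 29 were higher and 3 lower, near the 8.36% and 11.1% of all genes.

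PPARGC1B, a coactivator of genes for mitochondrial biogenesis, fell from 7.19 and 6.97 to 3.89 and 4.32. The difference was -2.98 ± 0.23 (SE, n = 2 per group; limma, adjusted p = 0.027), but its signal was well above background on 1 of the 2 embelin arrays only. On the array of embelin replicate 1 the lowest signal well above background was 5.97, so the size of the fall is uncertain and its SE does not cover this. With any array left out PPARGC1B was not called, and neither was any other gene of the array. PPARGC1B was the only one of the 19 genes in the list on transcription of respiratory genes called after adjustment. Among the 19, 3 were higher and 6 lower before adjustment, where the shares of all genes were 8.36% and 11.1%. The list also holds TWNK and POLG, which serve the replication of mitochondrial DNA, and TWNK (-0.92) was among the 6 lower. MTERF2, a mitochondrial protein of the transcription termination factor family, named MTERFD3 in the files, had 8.52 and 8.73 against 6.24 and 7.05, or -1.98 (limma, adjusted p = 0.078). The list as a whole was widely spread, from -2.98 to 0.75 with a median of -0.39, and 36.8% of its genes changed by less than 0.5.

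**Figure D5:**
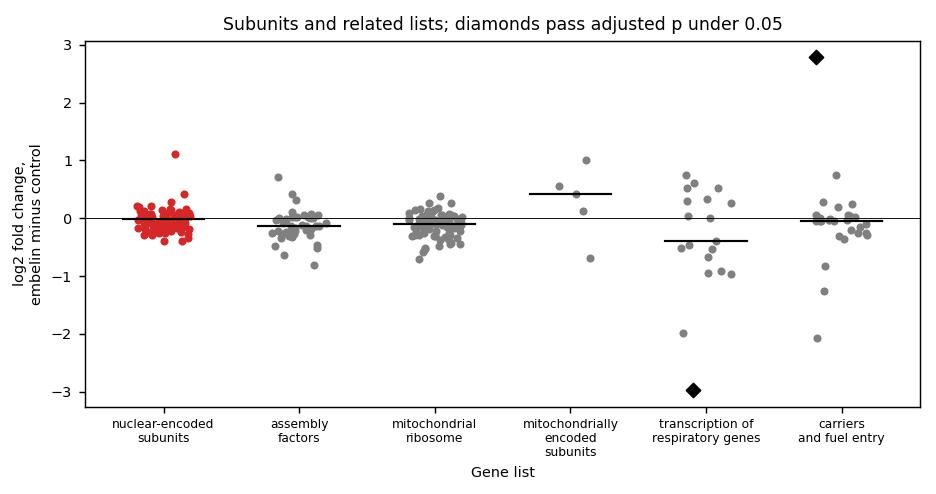
Log2 fold change (y axis, embelin minus control) of each tested gene, for the 82 nuclear-encoded members and 5 related lists (x axis), with medians as lines and genes with an adjusted limma p under 0.05 as black diamonds. PDK1 at 2.78 and PPARGC1B at -2.98 are the diamonds, and the nuclear-encoded members lie close to 0.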

How the data were processed

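The authors deposited scanner intensities of 4 single-colour Agilent arrays from Feature Extraction 10.7.3.1, which had subtracted background and corrected trends within each array. A deposited probe table held the same intensities averaged over spots. Here each array was scaled to a common 75th percentile, values under 1 were set to 1, and log2 was taken. Outlier spots were dropped and the mean over the remaining spots was used. A probe was kept if the scanner software called it well above background on both control or both embelin arrays (26146 of 50238), and the brightest kept probe stood for a gene. Signals of different probes are not comparable as RNA levels. Groups were compared with limma 3.58.1 in R 4.3.3 (lmFit and eBayes, tested on simulated data), two-sided, with Benjamini-Hochberg adjustment over 17649 genes. With 2 arrays per group, their number limits the precision. The methods name the 75th percentile shift and a t-test, and the latter was run as an alternative. Current names came from RefSeq.

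The members and lists were chosen with earlier results of these data known. Genes named were the 2 highest and 2 lowest of each complex, CYCS, isoform families, and of each list the called genes and the 2 largest changes. Others (NDUFS7, COX5A, ATP5B and CYTB) were chosen after their values were seen, as were the leaving out of COX4I2 and the group of bright genes. Alternatives were normexp background correction (offset 50), quantile normalization, the deposited table, no filter or a filter on all 4 arrays, trend and robust eBayes, blocks for replicate number and array background, slide position, the mean over probes, each probe alone, NDUFA4 in complex I, and each array left out. The files place the probes on hg18, and no probe coordinates were used. An item withheld here is not reported by name, while the counts include it.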

Additional observations from a re-analysis of the deposited data

How the results depend on the processing

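Under each of the 16 alternatives run 0 members were called after adjustment, but in 9 of them (no filter, the t-test, both blocks, slide position and each array left out) no gene of the array was called, so these 9 say nothing about the members. In the other 7, 1.05% to 6.01% of all genes were called. Of 479 alternative values of the 30 named members, 33 had the opposite sign, in 17 members whose change was at most 0.19 in size. Members at an unadjusted p under 0.05 numbered 1 higher and 2 lower by the methods' t-test (6.58% and 8.93% of all genes), 1 higher and 3 lower with trend and robust eBayes (8.81% and 12.3%), and 0 higher and 1 lower with normexp (8.61% and 11.4%). With the mean over probes (10.2% of all genes), or each probe alone (9.63%), 2 were lower. With the replicate number as a block 1 was higher (9.48%), and 0 to 1 were higher with each array left out. No calls were left among all genes under that block, where 221 were higher and 99 lower without it. Over all genes the 2 pairs of same-numbered arrays deviated together only weakly (r = 0.18), and the main fit did not take the numbers as pairs. Over the members r was 0.66, so their SEs and intervals include a difference between replicates that both groups share.

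A 2-fold change was reached by 0 members with normexp, with quantile normalization or with the filter on all 4 arrays, by 2 probes when each probe was taken alone, and by 0 to 1 with each array left out. The median of complex V was -0.069 with the mean over probes and ranged from -0.28 to -0.024 with each array left out. That of all members then ranged from -0.12 to 0.06, of complex I from -0.18 to 0.06 and of complex II from -0.24 to 0.12. The range was -0.10 to 0.08 for complex III and -0.07 to 0.24 for complex IV, so the sign changed in each of these. Complex V kept its sign, but these fits share arrays and its median came as near to 0 as -0.024. A stable direction is thus not shown for any complex. The cause was not tested. PDK1 and PPARGC1B kept their direction and lost their calls under the replicate block (adjusted p = 0.079 for both) and with any array left out, without the filter on dim probes, by the methods' t-test, under the background block and with slide position. PDK1 also lost it with the mean over probes (adjusted p = 0.061) and PPARGC1B with normexp (adjusted p = 0.052).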
